A study of Mus musculus with 26 samples.

Results

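RNA of the preoptic area was compared between castrated male and ovariectomized female mice, for genes on the autosomes. The members are the 6 supernatant libraries whose sample identifiers begin with TMG (castrated, 3 libraries) or TFG (ovariectomized, 3 libraries), of 26 libraries in the series, and the 15658 autosomal genes that passed a filter on low counts, of 21833 autosomal genes in the table of 23107. A supernatant is the RNA that stays behind when tagged ribosomes of GnRH neurons are pulled out of a tissue lysate, so it is depleted of GnRH neurons and holds all other preoptic cell types. All mice, the controls included, carried the genotype GnRH CRE x Floxed L10a-GFP, in which a Cre recombinase in GnRH neurons switches on a GFP-tagged ribosomal protein. They were adults of 55 to 165 days, and tissue punches were pooled before extraction. Each ovariectomized pool held 7 mice and each castrated pool 5. The 3 intact female supernatants (diestrus, pools of 5 to 7 mice) and the 4 intact male supernatants (pools of 5 or 7) share the model that estimates the spread and serve as reference groups. Time since surgery is not given in the sources used here.

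The preoptic area is among the most sexually dimorphic regions of the rodent brain. Its periventricular part holds kisspeptin neurons, which are more numerous in females, express Kiss1 under the drive of ovarian estradiol and excite GnRH neurons before ovulation. Removal of the gonads takes away the circulating sex steroids of both sexes.

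The labels fit the sex-linked transcripts in all 6 libraries. Xist, expressed from the inactive X chromosome, ran from 7.89 to 12.99 CPM (read counts scaled to library size, corrected for composition) in ovariectomized and from 0.106 to 0.259 CPM in castrated supernatants, and Y-linked Ddx3y from 0.484 to 0.981 against 61.2 to 66.2 CPM. Of the intact females used as reference, replicate 2 had Ddx3y at 1.69 CPM, against 0.312 and 0.351 CPM in replicates 0 and 1. Y-linked Eif2s3y was at 2.43 CPM there, against 0.216 and 0.0878 CPM. Intact males had Ddx3y at 56.5 to 66.0 CPM, and the source of these reads was not tested. The preoptic markers Hmx2, Hmx3, Lhx6, Nkx2-1, Esr1, Gal and Moxd1 were detected in all 6 libraries compared. Total counts were 27217252 to 38958787 in the ovariectomized and 45580635 to 47555917 in the castrated libraries. Depth, pool size and library number (13 to 15 against 18 to 20) did not overlap between the groups and cannot be told apart from sex here. Ovariectomized replicate 0 stood apart, with a score of 59.4 on the first principal component of the supernatants (23.8% of variance) against 29.3 and 1.61 for replicates 1 and 2 and -19.2 to -17.5 in the castrated group. It also had 35294 CPM of Lars2 and 4955 CPM of Rn45s, against 10596 to 12284 and 1528 to 2408 CPM in the other 5.

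Kiss1, which encodes the kisspeptin precursor, was the 1 autosomal gene that passed the test, and it was lower in castrated males. Its level was 4.23, 2.68 and 3.15 CPM in ovariectomized replicates 0, 1 and 2 and 0.864, 0.608 and 0.616 CPM in castrated replicates 0, 1 and 2, from 112, 72 and 122 counts against 40, 28 and 29. The lowest ovariectomized library stood above the highest castrated one, and the 3 castrated libraries lay closer together. The means were 3.35 ± 0.793 (SD, n = 3) and 0.696 ± 0.146 CPM (n = 3), 4.79-fold lower in castrated males (log2 -2.26 ± 0.34 SE, edgeR adjusted p 0.0231). Across all autosomal genes tested, 0.00639% passed. In bulk RNA, fewer kisspeptin cells and less Kiss1 RNA per cell cannot be told apart.

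Kiss1 lies on chromosome 1 (mm10, chr1:133321875-133329901, plus strand, protein-coding). GENCODE places 2 further annotated genes over that span, the read-through gene Gm28040 across all of it and the end of Golt1a over its first 1152 bases, so fragments of shared exons may not be assigned to Kiss1 uniquely. The 250 bases before the RefSeq start of Kiss1 are shown because Kiss1 is the gene that carries the comparison and is known to answer to sex steroids (RefSeq, GRCm38.p6, chr1:133326962-133327211, plus strand, 5′ to 3′). RefSeq starts the gene inside the GENCODE span given above, so these bases lie within that span. Capitals mark matches to TGACC, an estrogen receptor half-site searched on both strands.
Kiss1: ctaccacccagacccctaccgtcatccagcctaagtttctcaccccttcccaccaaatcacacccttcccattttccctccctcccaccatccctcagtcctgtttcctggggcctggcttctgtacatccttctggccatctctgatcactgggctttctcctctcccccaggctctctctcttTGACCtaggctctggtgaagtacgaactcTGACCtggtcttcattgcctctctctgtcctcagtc
The 2 matches began 65 and 36 bases before the RefSeq start. TGACC was present in 35.2% of 32851 mouse promoters of this length, so a match is common.

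The Kiss1 call was lost in 5 of the 6 fits that left out 1 library. Without ovariectomized replicate 0 its log2 difference was -2.06 (edgeR adjusted p 0.121), without replicate 1 it was -2.36 (adjusted p 0.0597) and without replicate 2 it was -2.30 (adjusted p 0.00311). Leaving out castrated replicate 0, 1 or 2 gave adjusted p of 0.0803, 0.254 and 0.272. Castrated males were lower in all 6 of these fits. With a correction for transcript length, described below, the log2 difference was -1.87 ± 0.32 SE (edgeR adjusted p 0.0873), and without ovariectomized replicate 2 it passed again (log2 -1.75, adjusted p 0.0140). DESeq2 put Kiss1 past the threshold without the length correction (adjusted p 1.22e-07) and with it (adjusted p 2.25e-05). By limma voom Kiss1 did not pass (log2 -2.24, limma voom adjusted p 0.138). Adjusting over the autosomal genes alone, without the 6 called sex-linked genes, gave an edgeR adjusted p of 0.111.

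Intact mice showed Kiss1 at other levels. It stood at 19.8, 26.3 and 11.03 CPM in intact females (19.1 ± 7.68, SD, n = 3) and at 3.12, 3.93, 2.16 and 2.33 CPM in intact males (2.89 ± 0.810, n = 4). Ordered by level, intact females were highest, ovariectomized females and intact males overlapped, and castrated males were lowest, with no overlap with any other group. The sex difference after gonadectomy minus that in intact mice was log2 0.47 ± 0.44 SE (edgeR adjusted p 1.00), so a difference between the 2 sex contrasts was not detected. In the immunoprecipitates of the same pools, which are enriched for GnRH neurons, Kiss1 was at 2.94, 3.67 and 1.95 CPM in ovariectomized and 1.42, 0.226 and 0.320 CPM in castrated samples (log2 -2.14 ± 0.64 SE, edgeR adjusted p 0.551). The groups did not overlap there either, and the difference did not pass.

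**Figure D1:**
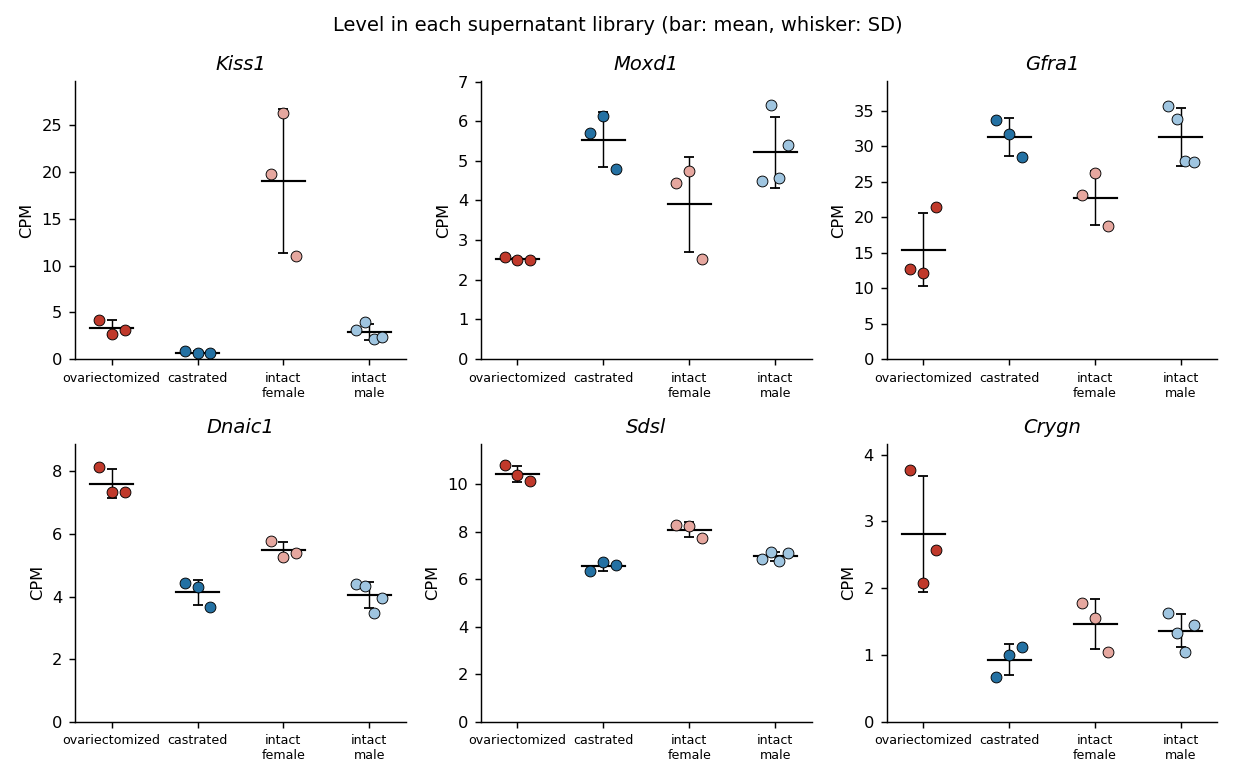
Level in CPM (linear vertical axis from 0) of Kiss1 and 5 further genes in each supernatant library, by group; points are libraries, bars means and whiskers SD. For Kiss1 the 3 castrated libraries sit at 0.608 to 0.864 CPM, below every library of the other groups.

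The fold changes followed transcript length. Across the 15540 tested autosomal genes with an annotated length (99.2%), the log2 difference rose with the length of the longest transcript (Spearman rho 0.408, a description across genes, which are not independent). The median log2 difference was -0.37 in the shortest of 10 equal length classes (median length 1014 bases) and 0.17 in class 9 (5766 bases). Library by library, the rho of a gene's deviation with length was -0.451 and -0.424 in ovariectomized replicates 0 and 1 and 0.124 in replicate 2, against 0.117, 0.172 and 0.202 in the castrated group. Ovariectomized replicate 2 therefore lay inside the castrated range of this trend and the other 2 well outside it. Intact females ran from -0.173 to 0.142 and intact males from 0.151 to 0.295. A per-library offset that removes this trend brought rho to 0.00693 and the median of every class to between -0.04 and 0.00. Replicate 2 was also the deepest ovariectomized library, at 38958787 counts. What the trend comes from was not tested.

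**Figure D2:**
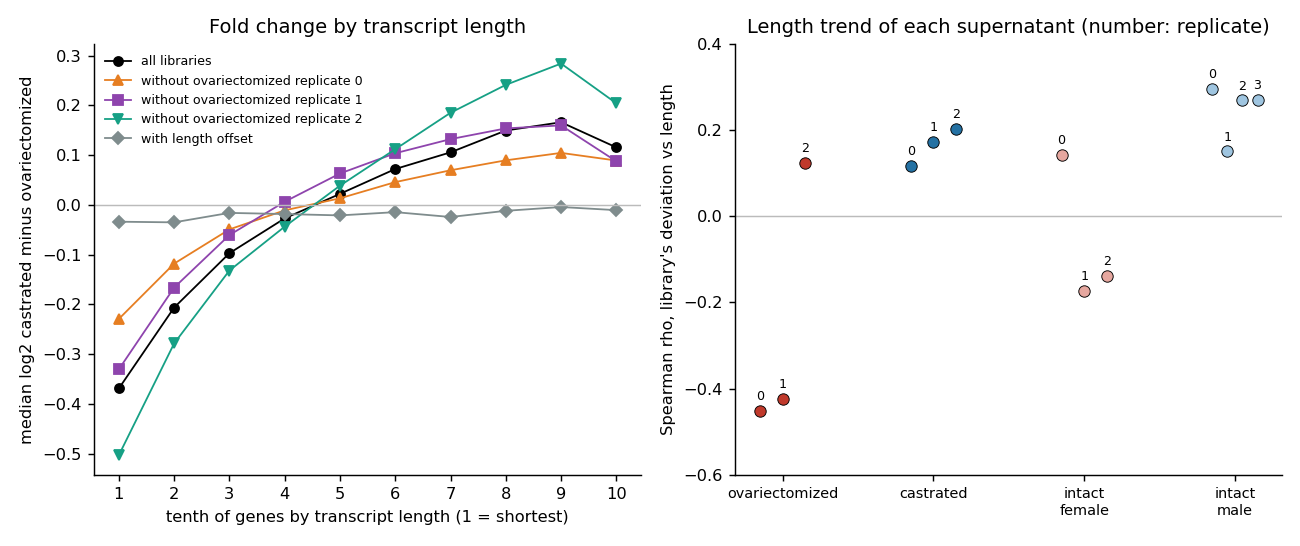
Left, median log2 difference (castrated minus ovariectomized) of the tested autosomal genes in each of 10 classes of transcript length, for all libraries, for fits that leave out each ovariectomized library, and with the length offset. Right, Spearman rho between length and each supernatant library's deviation, by group; ovariectomized replicates 0 and 1 lie at -0.451 and -0.424, below every other library.

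How many genes passed depended on the ovariectomized libraries and the tool. At an unadjusted p under 0.05, 3287 autosomal genes differed (21%), 1372 higher (8.76%) and 1915 lower (12.2%) in castrated males, and 822 had an adjusted p of at most 0.11. With the length offset none passed (2593 at an unadjusted p under 0.05, 16.6%). DESeq2 called 1190 genes (7.6%), 384 higher (2.45%) and 806 lower (5.15%), and 476 (3.04%) with the length offset, 134 higher (0.856%) and 342 lower (2.18%). The genes called both ways numbered 353, which is 29.7% of the first list and 74.2% of the second. Without ovariectomized replicate 2, edgeR called 2747 genes (17.3%), 1183 higher (7.46%) and 1564 lower (9.86%). With the offset and without that library it called 1060 (6.68%), 267 higher (1.68%) and 793 lower (5.0%). Without replicate 0 it called 1, the low-count gene Mfsd7a, and without replicate 1 none.

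None of the 10 genes of lowest p higher in castrated males passed, and Moxd1 had the largest difference of these 10. Moxd1 encodes a copper monooxygenase of the dopamine beta-hydroxylase family and marks the male-biased sexually dimorphic nucleus of the preoptic area. Its level was 2.57, 2.49 and 2.50 CPM in ovariectomized and 5.70, 6.13 and 4.78 CPM in castrated libraries. The groups did not overlap, which was a condition for naming these 10 that 13.2% of all autosomal genes met. The ovariectomized libraries were nearly identical. The means were 2.52 ± 0.0398 and 5.54 ± 0.688 CPM (SD, n = 3 each), a log2 difference of 1.13 ± 0.24 SE (edgeR adjusted p 0.108). With the length offset it was 1.09 (adjusted p 0.156). Moxd1 was at 2.52 to 4.74 CPM in intact females and 4.49 to 6.42 CPM in intact males.

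The other genes with the lowest p among those higher in castrated males differed by log2 0.59 to 1.02, each at an edgeR adjusted p of 0.108. Gfra1, the receptor for glial cell line-derived neurotrophic factor, was at 12.7, 12.2 and 21.5 CPM in ovariectomized and 33.8, 31.7 and 28.5 CPM in castrated libraries (log2 1.02). Slc5a7, the high-affinity choline transporter of cholinergic neurons, was at 13.8, 14.1 and 20.6 against 29.4, 32.5 and 27.7 CPM (log2 0.88). In both, ovariectomized replicate 2 was the closest of its group to the castrated libraries. Elovl4, an elongase of very long fatty acids, stood at log2 0.65, and Gpr37, a receptor rich in oligodendrocytes, at 0.80. Ets1, a transcription factor, stood at 0.86, Pcdh8, a protocadherin, at 0.91, Tspan5, a tetraspanin, at 0.59, Txndc16 at 0.92 and Pcyox1 at 0.89. With the length offset these 9 genes ran from 0.43 to 0.87 (adjusted p 0.156 for each). Without ovariectomized replicate 2, all 10 of the genes higher in castrated males passed, and without replicate 0 or 1 none did. With both the offset and ovariectomized replicate 2 left out, all but Ets1 passed (edgeR adjusted p 0.0826 for Ets1). All 10 had transcripts of 3001 bases or more, and DESeq2 called all 10 with the length offset.

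Of genes lower in castrated males, Dnaic1 had the lowest p after Kiss1, and none of the 10 named beside Kiss1 passed. Dnaic1, an intermediate chain of axonemal dynein, was at 8.15, 7.33 and 7.35 CPM in ovariectomized and 4.43, 4.30 and 3.68 CPM in castrated libraries. Those groups did not overlap, again a condition for naming these 10, which 13.4% of all autosomal genes met. Both spreads were narrow. The log2 difference was -0.88 ± 0.16 SE (edgeR adjusted p 0.101), and -0.86 with the length offset (adjusted p 0.111), the smallest move among the 10. Enkur, which encodes a ciliary protein, stood at -0.83 and Meig1, known for its role in sperm formation, at -0.80. Both differences shrank with the offset, to -0.58 and -0.39.

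Crygn and Crybb1, which encode crystallins best known from the lens, stood at log2 -1.59 and -1.22, and Capn3, a calpain protease, at -1.28. For Crygn the values were 3.77, 2.08 and 2.58 CPM against 0.670, 0.999 and 1.13 CPM. Sdsl, an enzyme related to serine dehydratase, was at 10.8, 10.4 and 10.2 against 6.35, 6.71 and 6.61 CPM (log2 -0.67). With the offset, Crygn stood at -1.18, Crybb1 at -0.81, Capn3 at -1.34 and Sdsl at -0.47. Snrpf, a protein of the splicing machinery, Ctxn2 and Hint1 stood at -0.59, -0.51 and -0.53. With the offset they came to -0.21, -0.18 and -0.08. All 10 passed without ovariectomized replicate 2 in the uncorrected fit. With both the offset and that library left out, Capn3, Crybb1 and Dnaic1 passed. DESeq2 with the length offset called Capn3, Crybb1, Crygn, Dnaic1 and Sdsl. It did not call Enkur, Meig1, Snrpf, Ctxn2 or Hint1.

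**Figure D3:**
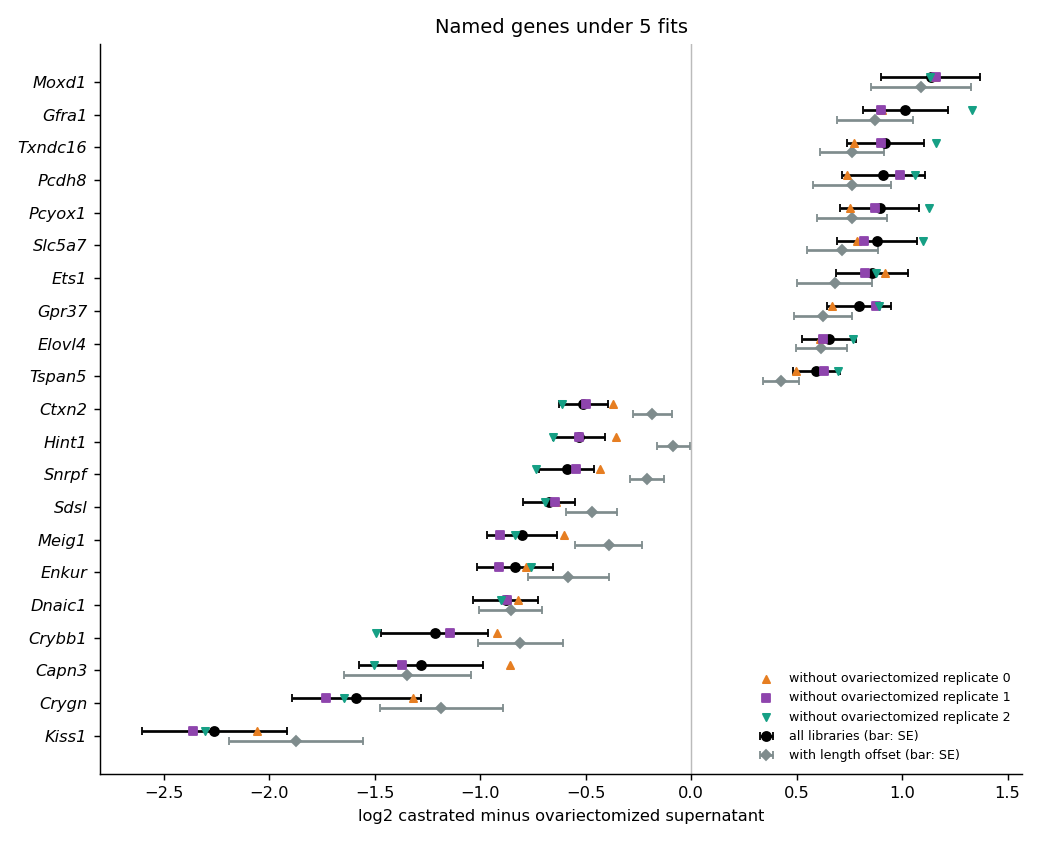
Log2 difference (castrated minus ovariectomized, horizontal axis) of Kiss1 and the 20 named genes that did not pass, with SE, for all libraries and with the length offset, and without each ovariectomized library. All 21 keep their side of 0, which is largely fixed for the 20 by their choice for groups that do not overlap. Hint1 moves from -0.53 to -0.08 with the offset.

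Across a list of 27 tested preoptic genes known for sex differences, Kiss1 alone passed by edgeR. The groups did not overlap for 9 genes higher and 2 lower in castrated males, against 13.2% and 13.4% of all autosomal genes, and the median log2 difference was 0.24 against 0.00 over all genes (0.45 against -0.02 with the offset). Greb1, an estrogen-induced gene, was at 0.717, 0.707 and 0.902 against 2.46, 1.13 and 1.21 CPM (log2 1.03, edgeR adjusted p 0.151). Ecel1, an endopeptidase, was at 135, 123 and 150 against 213, 187 and 226 CPM (log2 0.62, adjusted p 0.1096). Th, which makes dopamine and is known to be female-biased in the periventricular preoptic area, was at 81.4, 48.5 and 75.8 against 43.0, 45.3 and 58.5 CPM, with overlap (log2 -0.49, adjusted p 0.132).

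Of 18 steroid receptors and coregulators tested, none passed, and the median was 0.00 (-0.11 with the offset). Without overlap, 1 was higher and none lower, against 13.2% and 13.4% of all autosomal genes. With the offset 1 was higher and 2 were lower, against 11.7% and 12.5%, and DESeq2 with the offset called 1 lower (2.18% over all genes). Esr1, the main estrogen receptor, was at 12.7, 10.4 and 33.3 CPM in ovariectomized and 14.7, 18.4 and 14.7 CPM in castrated libraries, so 1 ovariectomized library stood above all others (log2 -0.25, edgeR adjusted p 0.694). Pgr, the progesterone receptor, was at 28.8, 28.8 and 32.9 against 25.7, 26.2 and 29.2 CPM (log2 -0.16, adjusted p 0.395). Among 29 steroid-responsive genes Kiss1 was again the only edgeR call, and the median of the list was 0.14. There 8 were higher and 2 lower without overlap, against 13.2% and 13.4% of all autosomal genes. Socs2, an inhibitor of cytokine signalling, was 1 of those lower, at 23.6, 21.7 and 17.2 against 14.9, 15.1 and 14.5 CPM (log2 -0.49, adjusted p 0.108).

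Around Kiss1, a list of genes of the kisspeptin and GnRH network had a positive median difference, and Kiss1 alone passed by edgeR. Of 20 tested genes of this network, 6 were higher and 1 (Kiss1) was lower without overlap, against 13.2% and 13.4% of all autosomal genes, with a median of 0.23 (0.43 with the offset). Tacr3, the receptor for neurokinin B, was at 5.17, 7.78 and 10.004 against 11.1, 12.6 and 12.7 CPM (log2 0.66, edgeR adjusted p 0.115), and Tacr1, the receptor for substance P, had a log2 difference of 0.60. Kiss1r, the kisspeptin receptor, was at 10.01 to 11.4 against 10.4 to 12.3 CPM (log2 0.07). Gnrh1 itself was at 284, 455 and 94.8 against 110, 62.8 and 48.4 CPM (log2 -1.91, adjusted p 0.252), with ovariectomized replicate 2 below castrated replicate 0. Among 31 preoptic neuropeptides none passed, and the median was 0.00 (0.24 with the offset). Without overlap, 5 were higher and 2 lower, against 13.2% and 13.4% of all autosomal genes. Penk (258, 320 and 203 against 398, 366 and 350 CPM, log2 0.51), Nts (33.6, 34.0 and 30.2 against 46.9, 48.1 and 39.1 CPM, log2 0.46) and Vip (log2 1.35) were among the 5 higher, and Sst (244, 142 and 136 against 121, 121 and 102 CPM, log2 -0.60) and Cck (50.8, 24.3 and 20.7 against 15.4, 15.8 and 10.7 CPM, log2 -1.19) were the 2 lower. With the length offset 12 were higher and 1 lower without overlap, against 11.7% and 12.5% of all autosomal genes. The median transcript of this list was 1043 bases long, against 3286.5 over all genes.

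No marker of transmitter identity or release passed by edgeR. DESeq2 called 1 of 14 GABA and glutamate genes and 3 of 24 release genes higher, against 2.45% of all autosomal genes. Of 11 monoamine and acetylcholine genes it called 1 higher and 1 lower (5.15% lower over all). With the length offset it called none of the 14, 1 of the 24 higher, and again 1 higher and 1 lower of the 11. Over all autosomal genes 0.856% were then called higher and 2.18% lower. Without overlap, 6 of the 14 were higher and 1 lower (median 0.38), and of the 11 these were 3 and 1. Slc32a1, which loads GABA into vesicles, was at 60.2, 47.5 and 61.2 against 82.8, 78.8 and 88.8 CPM (log2 0.57, edgeR adjusted p 0.164). The cholinergic genes Slc18a3 (0.58) and Ache (0.62) stood on the same side as Slc5a7, while Chat, which makes acetylcholine, had overlapping groups (0.22). Hdc, which makes histamine, was at 10.2, 6.25 and 8.77 against 4.52, 3.74 and 5.25 CPM (log2 -0.90, adjusted p 0.108). Over all autosomal genes, 13.2% were higher and 13.4% lower without overlap. The 30 preoptic transcription factors had 2 higher and 1 lower without overlap and a median of -0.07. Of 23 immediate early genes 3 were higher and none lower, of 18 clock genes 3 and 1, and of 24 release genes 7 and 3. Heat shock genes had 1 and 1 of 17. The higher counts of the immediate early and clock genes were near the share over all genes.

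Nuclear-encoded genes of oxidative phosphorylation had the largest share of members lower in castrated males without overlap. Of 71 tested, 48 were lower in castrated males without overlap and none was higher, against 13.4% and 13.2% of all autosomal genes, with a median of -0.47, and none passed. Their median transcript was 1231 bases long. With the length offset 26 were lower without overlap, against 12.5% of all autosomal genes, and the median was -0.10. Summed CPM of the list ran over 38308, 32009 and 26500 in ovariectomized replicates 0, 1 and 2 and from 25230 to 25409 in the castrated group, so replicate 2 was near the castrated level. Uqcrq, a subunit of complex III, was at 584, 433 and 289 against 286, 282 and 262 CPM (log2 -0.66, and -0.43 with the offset). DESeq2 called 49 of the 71 lower (5.15% over all genes), and 11 with the offset (2.18%).

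**Figure D4:**
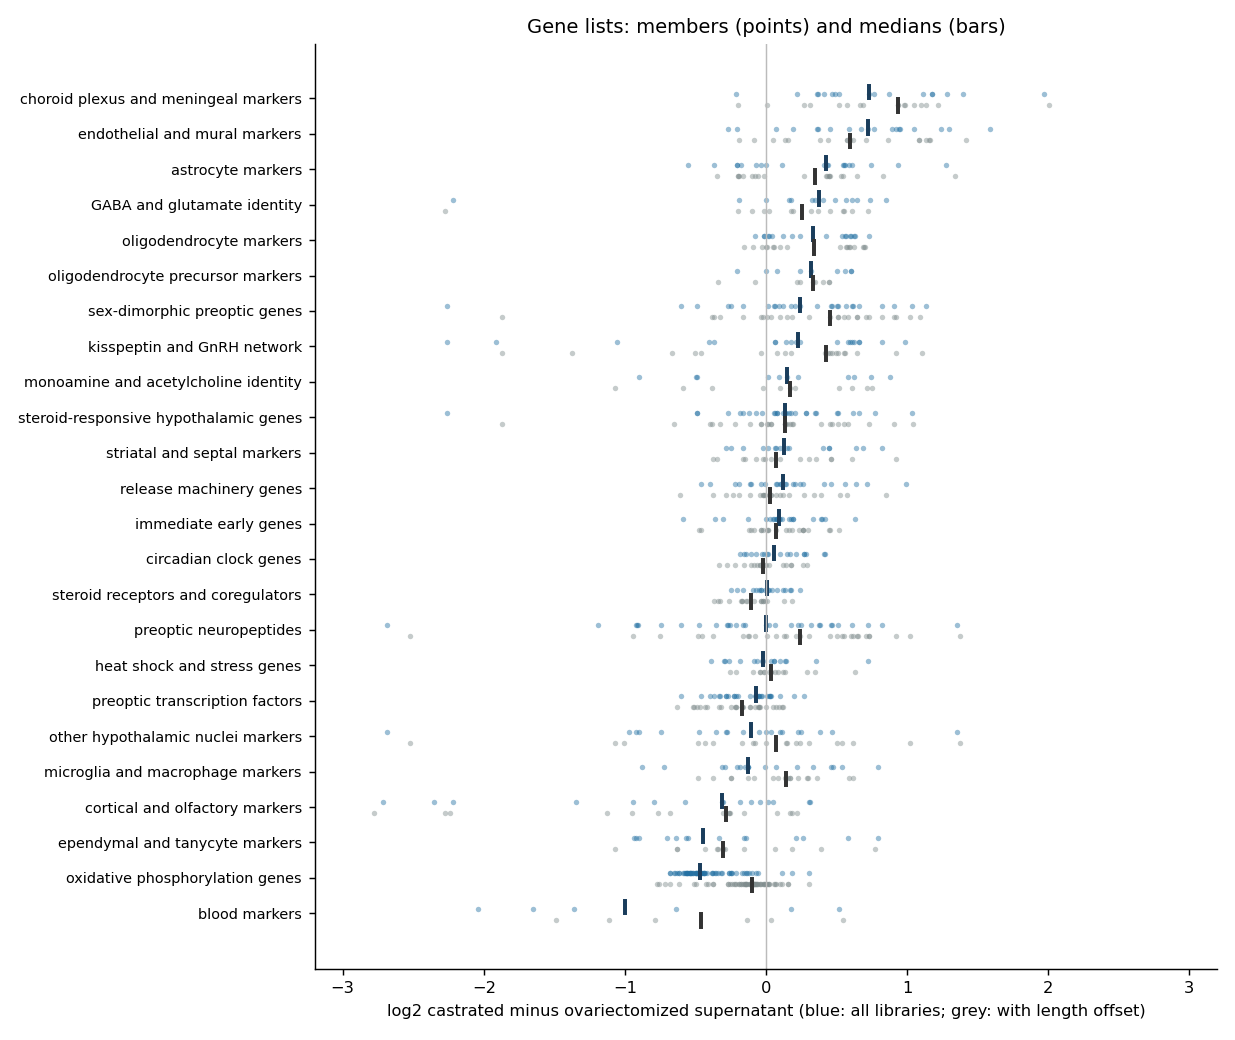
Log2 difference (castrated minus ovariectomized, horizontal axis) of the tested autosomal members of each gene list, without correction (blue) and with the length offset (grey); points are genes and vertical bars medians. The oxidative phosphorylation median moves from -0.47 to -0.10, and the choroid plexus and meningeal median lies at 0.73 and 0.93.

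No marker of a cell type other than neurons passed by edgeR. DESeq2 called none of the endothelial and mural markers. Of 17 choroid plexus and meningeal markers it called 1 higher, and 1 with the length offset. Over all autosomal genes it called 2.45% higher, and 0.856% with the offset. Of 19 endothelial and mural markers 10 were higher in castrated males without overlap and none lower, against 13.2% and 13.4% of all autosomal genes (median 0.73, 0.59 with the offset), and their summed level was 97.4 to 174 CPM in ovariectomized and 205 to 236 CPM in castrated libraries. Of 17 choroid plexus and meningeal markers 9 were higher and none lower, against the same shares (median 0.73), summing to 683 to 2020 against 2113 to 2434 CPM. This sum varied widely within the intact groups, from 666 to 2398 CPM in females and from 510 to 2456 CPM in males. Lum, a proteoglycan of meningeal fibroblasts, was at 1.17, 2.46 and 1.16 against 6.89, 7.04 and 4.70 CPM (log2 1.97, adjusted p 0.112). Ttr, the defining choroid plexus transcript, was low in all 6 libraries, at 0.871 to 2.98 CPM.

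Of 18 oligodendrocyte markers 9 were higher without overlap and none lower, against 13.2% and 13.4% of all autosomal genes (median 0.34), summing to 2910 to 3101 against 3494 to 3725 CPM. Mag, a myelin adhesion protein, was at 65.7, 60.6 and 63.7 against 87.3, 91.1 and 109 CPM (log2 0.60), while Mbp, the major myelin protein gene, overlapped (log2 0.02). Astrocyte markers had 9 higher and 2 lower of 20, against the same shares, and overlapped in sum (1950 to 2001 against 1949 to 2286 CPM). Gjb6, a gap junction protein, was at 13.5, 24.5 and 26.4 against 60.1, 62.2 and 33.9 CPM (log2 1.27), and Gfap overlapped (log2 -0.21). Precursor markers had 4 higher of 9, and microglial markers 3 of 18, which is near the share over all genes. DESeq2 called 4 of the 18 oligodendrocyte markers higher, and 4 with the length offset, against 2.45% and 0.856% of all autosomal genes. It called 2 astrocyte markers higher and 1 lower, and with the offset 1 higher and none lower. Of microglial markers it called 1 lower, and none with the offset, and of precursor markers none. Over all genes 5.15% were called lower, and 2.18% with the offset.

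The ependymal list went the other way, with 6 of 14 lower in castrated males without overlap and 1 higher, against 13.4% and 13.2% of all autosomal genes. With the offset 2 were lower and 1 higher, against 12.5% and 11.7%, so the lower count was then near that of all genes. The median log2 difference of the list was -0.45, and -0.31 with the offset, against 0.00 and -0.02 over all genes. Foxj1, the regulator of motile cilia, was at 32.9, 21.6 and 32.0 against 19.4, 18.7 and 17.5 CPM (log2 -0.64, edgeR adjusted p 0.140), and its target genes Ccdc153 (-0.94) and Dynlrb2 (-0.92) stood on the same side. Dnaic1 and Enkur, described above, stood on the same side as these ciliary markers. The summed ependymal level was 270 to 380 CPM in ovariectomized and 239 to 281 CPM in castrated libraries, with overlap. DESeq2 called 5 of the 14 ependymal markers lower, and 1 with the offset, against 5.15% and 2.18% of all autosomal genes.

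Cortical and olfactory markers, which a preoptic punch should hold little of, were lower in castrated males without overlap for 4 of 16 genes and higher for 1, against 13.4% and 13.2% of all autosomal genes. Their sum was 1880 CPM in ovariectomized replicate 0 and 1023 and 1150 CPM in the other 2, against 933 to 959 CPM in the castrated group. Neurod2, a transcription factor of cortical neurons, was at 23.9, 3.24 and 4.38 against 1.79, 2.67 and 0.319 CPM (log2 -2.71, edgeR adjusted p 0.245). Striatal markers overlapped in sum. All 6 blood markers tested had overlapping groups, but their median log2 difference was -1.001 (-0.46 with the offset). Without ovariectomized replicate 0 this median was 0.01. Blood markers (7 genes) summed to 64.9, 38.6 and 24.9 CPM in ovariectomized replicates 0, 1 and 2, against 20.8 to 24.7 CPM in castrated libraries. Of 20 other hypothalamic markers 1 was higher and 1 lower without overlap. With the offset these were 4 and 1, against 11.7% and 12.5% of all autosomal genes. The part that cell composition or dissection plays in the differences of single genes was not tested.

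**Figure D5:**
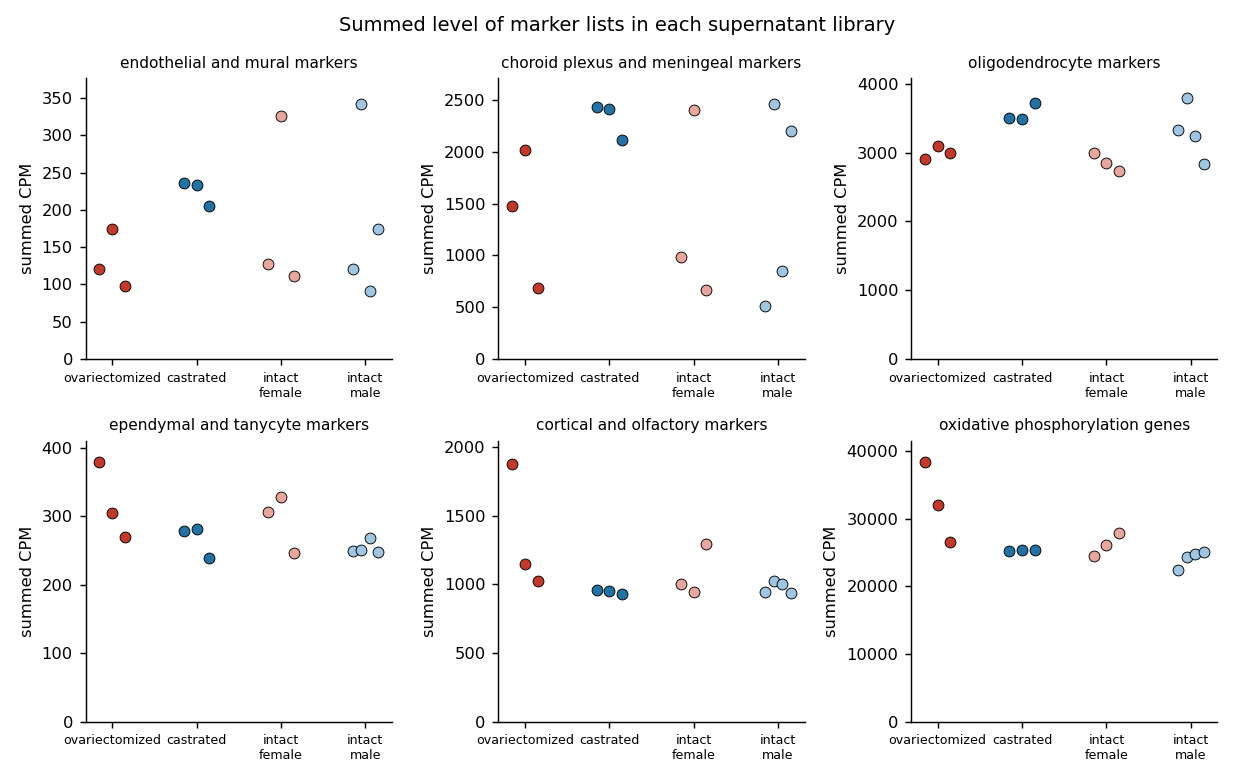
Summed CPM (linear vertical axis from 0) of 6 lists in each supernatant library, by group; points are libraries. Endothelial and mural markers sum to 205 to 236 CPM in castrated and 97.4 to 174 CPM in ovariectomized libraries, and both intact groups spread across these ranges.

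Whether the sex difference changed with gonadectomy was tested as the difference between the castrated against ovariectomized contrast and the intact male against intact female contrast. No autosomal gene passed by edgeR or by limma voom. At an unadjusted p under 0.05 there were 271 (1.73%), and DESeq2 called 3 (0.0192%), all negative, Krt12, Slc25a47 and Thg1l. Slc25a47, a mitochondrial carrier, was at 5.06, 4.84 and 4.92 CPM in ovariectomized, 3.31, 3.89 and 3.29 in castrated, 2.95, 2.85 and 3.44 in intact female and 5.58, 5.28, 4.37 and 5.30 CPM in intact male libraries. Its groups were ordered in opposite ways in the 2 settings (log2 -1.23 ± 0.23 SE for the difference, edgeR adjusted p 0.908). Krt12, a keratin, was at 3.55, 2.98 and 1.88 in ovariectomized, 1.02, 1.02 and 1.23 in castrated and 0.373 to 1.27 CPM in intact female libraries, with 1.33 to 2.08 CPM in intact males (log2 -2.62, adjusted p 0.908). Thg1l, a guanylyltransferase of histidine transfer RNA, had a log2 difference of -1.47 and Hhipl1 one of 1.31 (adjusted p 1.00 for each). Mfsd7a, also among the lowest p, had 0 counts in 2 ovariectomized libraries and was at 0 to 0.113 CPM in that group and 0.282 to 0.510 CPM in castrated libraries.

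In the immunoprecipitates of the same pools, no autosomal gene passed by edgeR or limma voom. Of 15467 tested, 1332 had an unadjusted p under 0.05 (8.61%), and DESeq2 called 24 (0.155%), 18 higher (0.116%) and 6 lower (0.0388%) in castrated males. Moxd1 was at 0.850, 1.22 and 1.88 CPM in ovariectomized and 4.89, 1.64 and 3.04 CPM in castrated immunoprecipitates (log2 1.27, edgeR adjusted p 0.695), and Dnaic1 stood at log2 -0.77 (adjusted p 0.772).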

How the data were processed

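RNA of mouse preoptic punches was sequenced from pools of animals. The deposited table holds estimated counts per gene, with a column for each library, made by the authors. Per the submitters' processing notes, build mm10 was used, with TopHat2 2.0.9 and Bowtie2 2.1.0 among the tools, and Cuffdiff 2.1.1. Per the labels' protocols, cDNA came from a SMART-Seq low-input kit, which does not mark the strand, so reads of overlapping and antisense genes cannot be told apart. The annotation and the treatment of multiply mapped reads are not given in these sources.

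Estimated counts were rounded and fitted over 13 supernatants in 4 groups with edgeR 4.0.16 (R 4.3.3): filterByExpr (minimum count 10, minimum total 15), TMM scaling, the quasi-likelihood F-test (two-sided) and Benjamini-Hochberg adjustment over all 16360 tested genes (15658 autosomal), threshold 0.05. CPM were computed on TMM-scaled totals. The length offset was a per-library lowess (span 0.3) of log2 CPM deviations on the log2 length of the longest GENCODE transcript. Genes without a length were given the median offset of each library. Alternatives used DESeq2 1.42.0 and limma 3.58.1. The common biological coefficient of variation was 0.181. Intervals from these counts cover counting error and spread between pools only. No replicate pair agreed within sampling noise (chi-square per degree of freedom at least 4.56).

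Named genes were all called autosomal genes and, given as not passing, the 10 of lowest p per direction among genes whose groups did not overlap and averaged at least 1 CPM; for the difference of differences, the 3 of lowest p per direction. Predicted genes were not ranked, and some genes that the rule or the lists select are not reported here. List members named otherwise were chosen after their values were seen. The members and lists were chosen with earlier results of these data known. On simulated counts with the libraries' length trends put in, the test recovered 97% of genes changed by log2 2 and 74% by log2 1. It made 42 false calls among 16241 genes, and 10 with the length offset. The changed genes averaged at least 1 CPM. Genes were drawn independently, so deviations shared across genes within a pool, other than with length, were left out. Recovery in the real libraries cannot be read from these figures. Of 27 named genes, 13 overlap another annotated gene.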

Additional observations from a re-analysis of the deposited data

Results flagged for a closer look

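In the 4 intact male supernatants, 2 of 27 named genes had 1 library far from the other 3, and chance flags about 1 in 20 groups. Slc5a7 stood at 18.9 CPM in replicate 3, against 23.4, 23.5 and 24.1 CPM in the others. Krt12 stood at 1.33 CPM in replicate 2, against 2.01, 2.04 and 2.08 CPM. Groups of 3 libraries were not examined in this way.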

How the results depend on the processing

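In the uncorrected edgeR fit 1 autosomal gene passed. The count was 1190 with DESeq2, 476 with DESeq2 and the length offset, 0 with limma voom, 0 with the length offset, 4 with only the 6 supernatants compared (3 higher and 1 lower in castrated males), 250 without libraries numbered 1 to 10 (238 higher, 12 lower), 0 with counts thinned to the smallest library and 0 when adjusted over autosomal genes alone. Leaving out 1 library gave 0 to 2747 calls, and 0 to 1060 with the length offset; the high values came without ovariectomized replicate 2, and without any other library at most 1 gene passed. Higher calls prevailed on the 6 supernatants and without libraries numbered 1 to 10, and lower calls prevailed with DESeq2 (384 higher, 806 lower) and without ovariectomized replicate 2 (1183 higher, 1564 lower). The 1 gene without ovariectomized replicate 0 was Mfsd7a. Replicate numbers did not pair the samples (correlation of deviations 0.0207, 0.0293 and 0.0565 for the same numbers). With a replicate block the count was 1 over the 4 groups, 11 on the 6 supernatants alone (10 higher, 1 lower) and 0 with the length offset. Other size factors, no low-count filter, a mean of at least 1 CPM and a robust fit each gave 1. For Kiss1, 12 of 27 alternatives kept the call, with log2 from -2.44 to -1.75 and adjusted p from 1.22e-07 to 0.382. The 20 other named genes kept their sign in all 540 of their alternatives and passed in 80. They were chosen for groups that do not overlap and for low p, so keeping the sign was largely fixed by that choice. For the difference of differences DESeq2 called 3 genes and for the immunoprecipitates 24, against 0 by edgeR. The length trend (rho 0.408) ran from 0.331 to 0.466 without 1 library. Thinned counts, the DESeq2 fit with the offset and the offset without each castrated library were added after seeing the data. Kiss1 rests on 28 to 122 counts per library.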
